A study of Mus musculus with 12 samples.

Results

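Pecam1, Cdh5, Kdr, Flt1, Tie1, Tek, Vwf, Emcn, Egfl7 and Cldn5 are widely used markers of endothelial cells, the cells that line blood vessels. They were taken as the loci of the deposited count table that carry these symbols, and each symbol matched 1 locus, so that the 10 markers are 10 of 25171 loci. RNA of whole hearts from 12 mice was measured, with 3 mice in each of 4 groups. According to the labels and the study's methods, all mice carried NOTCH2NLC with 98 GGC repeats behind a removable stop sequence at the Rosa26 site. EIIa-ctl mice had no Cre, whereas EIIa-tg mice carried EIIa-Cre, which removes the stop throughout the body, and hearts were taken on postnatal day 30. Myh6-tg mice are labelled as carrying Myh6-creERT2, a Cre made in cardiomyocytes and activated by tamoxifen, and received 3 injections of tamoxifen (75 mg per kg) in corn oil from day 60. Myh6-ctl mice bear the same genotype label and received corn oil without tamoxifen, and hearts of both Myh6 groups were taken on day 90. Cre in the Myh6 model is meant to act in cardiomyocytes and not in endothelial cells. The drug and the induced transgene change together between its groups, so that their effects cannot be told apart. Esr1 counts, given below, also differ between these groups, and this difference goes together with the drug and the transgene.

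Endothelial cells form the inner layer of arteries, capillaries, veins and the heart chambers, and dense capillaries supply the cardiomyocytes. They respond to VEGF through the receptor tyrosine kinases encoded by Kdr and Flt1 and to angiopoietins through Tek, which acts together with Tie1. They are joined by junctions that contain the products of Cdh5, Pecam1 and Cldn5. In RNA from whole tissue, fewer endothelial cells and less RNA per endothelial cell cannot be told apart.

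Egfl7 (chr2:26580014-26593120 in GRCm38, plus strand) is the host gene of miR-126, a microRNA abundant in endothelial cells. The mature strand from RefSeq (GRCm38.p6, chr2:26591402-26591423, plus strand) is shown because it lies within a marker described here. Capitals mark the seed, bases 2 to 8.
mmu-miR-126a-3p: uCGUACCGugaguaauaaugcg
The microRNA itself was not measured in these libraries. Promoters of endothelial genes commonly hold binding sites of ETS family transcription factors, so the RefSeq promoter windows (GRCm38.p6, 250 bases before to 50 bases after a start) were searched for AGGAAG on both strands. The table held 9 windows of 7 markers, and 5 of these windows had a match, against 35.4% of all 32851 windows. The matches lay in windows of Egfl7, Emcn, Tie1 and Flt1. The windows of Kdr, Tek and Cldn5 held none of these letters. For each of the 4 genes 1 match before the start is shown, in capitals and in the direction of the gene. It begins 80 bases before the start in Egfl7, 93 in Emcn, 219 in Tie1 and 53 in Flt1.
Egfl7, chr2:26583773-26583802, plus strand: gagaacacacacAGGAAGtccggcgggaag
Emcn, chr3:137340973-137341002, plus strand: agtggctgccaaAGGAAGagagaggaaaaa
Tie1, chr4:118490051-118490080, minus strand: ggaagccactggCTTCCTccctttcctgtc
Flt1, chr5:147726047-147726076, minus strand: aggtgccggggtAGGAAGtgggctggggaa

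Between 38343106 and 50969834 reads were counted per heart, and the lowest count of any marker in any heart was that of Cldn5 in Myh6-ctl replicate 2 (759 counts). Mitochondrially encoded genes took 28.5% to 38.3% of the counts in the other groups and 15.5% to 18.6% in Myh6-tg hearts. Y-linked genes had 4224 to 7307 counts in replicate 1 of each group and 0 to 2 in the other hearts, which gives each group 1 male and 2 female hearts. Esr1, whose ligand-binding part belongs to tamoxifen-activated Cre proteins, had 53433 to 103037 counts in the libraries labelled Myh6-ctl and 53 to 116 in those labelled Myh6-tg, although their labels give the same genotype. The EIIa hearts, which carry no CreERT2, had 15 to 54. This gene goes against the labels, so that Myh6-tg and Myh6-ctl stand throughout for the libraries so labelled, and every direction in the Myh6 model would turn if the labels of its groups were exchanged. Whether they were exchanged was not tested. After an exchange the Myh6 groups would still differ in Esr1 under the same genotype label. A difference in the Cre allele can therefore not be told apart from the drug and the transgene. Going from the control to the transgenic label, the share of mitochondrially encoded counts and the cardiomyocyte markers were lower and the atrial markers higher without overlap in both models. The sums of red cell markers, further pan-endothelial genes, VEGF and angiopoietin genes and vessel junction genes were also lower without overlap in both models. The sums of arterial endothelial genes and of lymphocyte markers went opposite ways in the models without overlap. Arterial endothelial genes were lower in EIIa-tg and higher in Myh6-tg hearts, and lymphocyte markers were higher in EIIa-tg and lower in Myh6-tg hearts. These values are no test of the labels. Brain markers summed to at most 7.17 CPM (counts scaled to library size with TMM factors), although the extraction label names brain, and the lung epithelial markers to at most 0.104 CPM. The cardiomyocyte markers summed to 11447 CPM or more in every heart, so that the values are those of heart tissue.

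Compared per transcript length, in FPKM, Pecam1 and Egfl7 had the highest levels of the 10 markers in all 4 groups and Vwf the lowest level in 3 of them. In EIIa-ctl hearts Egfl7 had 66.4 ± 9.40 FPKM (SD, n = 3) and Pecam1 66.0 ± 6.16 FPKM, and their hearts overlapped. Cdh5 followed with 57.6 ± 6.18, then Emcn with 36.8 ± 7.88, Tie1 with 30.6 ± 2.86 and Kdr with 29.5 ± 3.60 FPKM. Emcn overlapped Tie1, and Tie1 overlapped Kdr. Tek (15.5 ± 1.06 FPKM), Flt1 (14.6 ± 0.673 FPKM) and Cldn5 (14.6 ± 2.78 FPKM) were not separated, and Vwf had 7.07 ± 1.83 FPKM. The order differed in Myh6-tg hearts, where Cldn5 was the third of the 10 with 40.2 ± 2.97 FPKM, next to Cdh5 with 39.1 ± 3.67 FPKM, and Kdr was the last with 12.7 ± 2.83 FPKM. In Myh6-ctl hearts every marker overlapped its neighbour in the order.

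**Figure D1:**
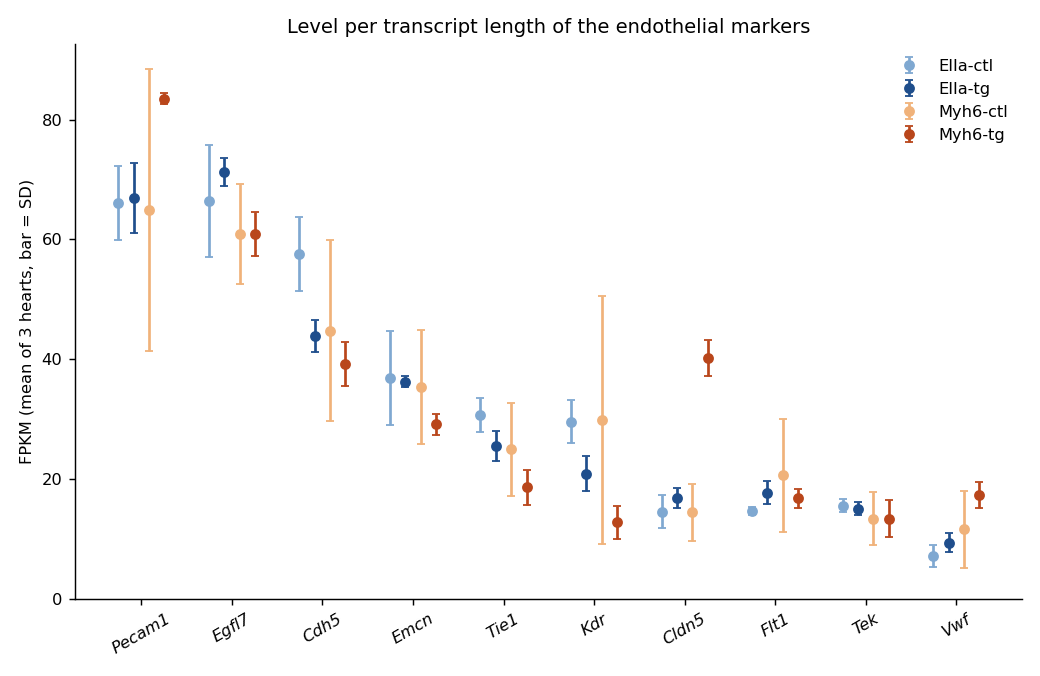
Level of each endothelial marker in FPKM (y axis, fragments scaled to transcript length and library size) in the 4 groups, as mean and SD of 3 hearts, with genes ordered by their mean over all 12 hearts. Cldn5 in Myh6-tg (40.2 FPKM) stands above its other 3 groups, and the bars of Myh6-ctl are the widest for most genes.

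The markers varied little among EIIa hearts and widely among Myh6-ctl hearts. The median coefficient of variation of the 10 markers in CPM was 9.34% among EIIa-ctl hearts, 10.5% among EIIa-tg, 33.0% among Myh6-ctl and 15.3% among Myh6-tg hearts. In Myh6-ctl, replicate 1 had the highest level of 8 of the 10 markers and replicate 2 the lowest level of 8. Replicate 1 was the male heart of this group, and the part of sex in the spread was not tested. The 10 markers summed to 1655, 824 and 1299 CPM in Myh6-ctl replicates 1, 2 and 3, against 844 to 1028 CPM in Myh6-tg hearts. Myh6-ctl replicate 2 therefore lay below every Myh6-tg heart in this sum, and the groups overlapped. The atrial markers, which include Nppa, summed to 1816 CPM in Myh6-ctl replicate 2 and to 153 and 760 CPM in replicates 1 and 3, and the part of this difference in the marker levels was not tested. In the EIIa model the sums were 1220 to 1389 CPM in EIIa-ctl and 1013 to 1097 CPM in EIIa-tg hearts, and the groups did not overlap.

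**Figure D2:**
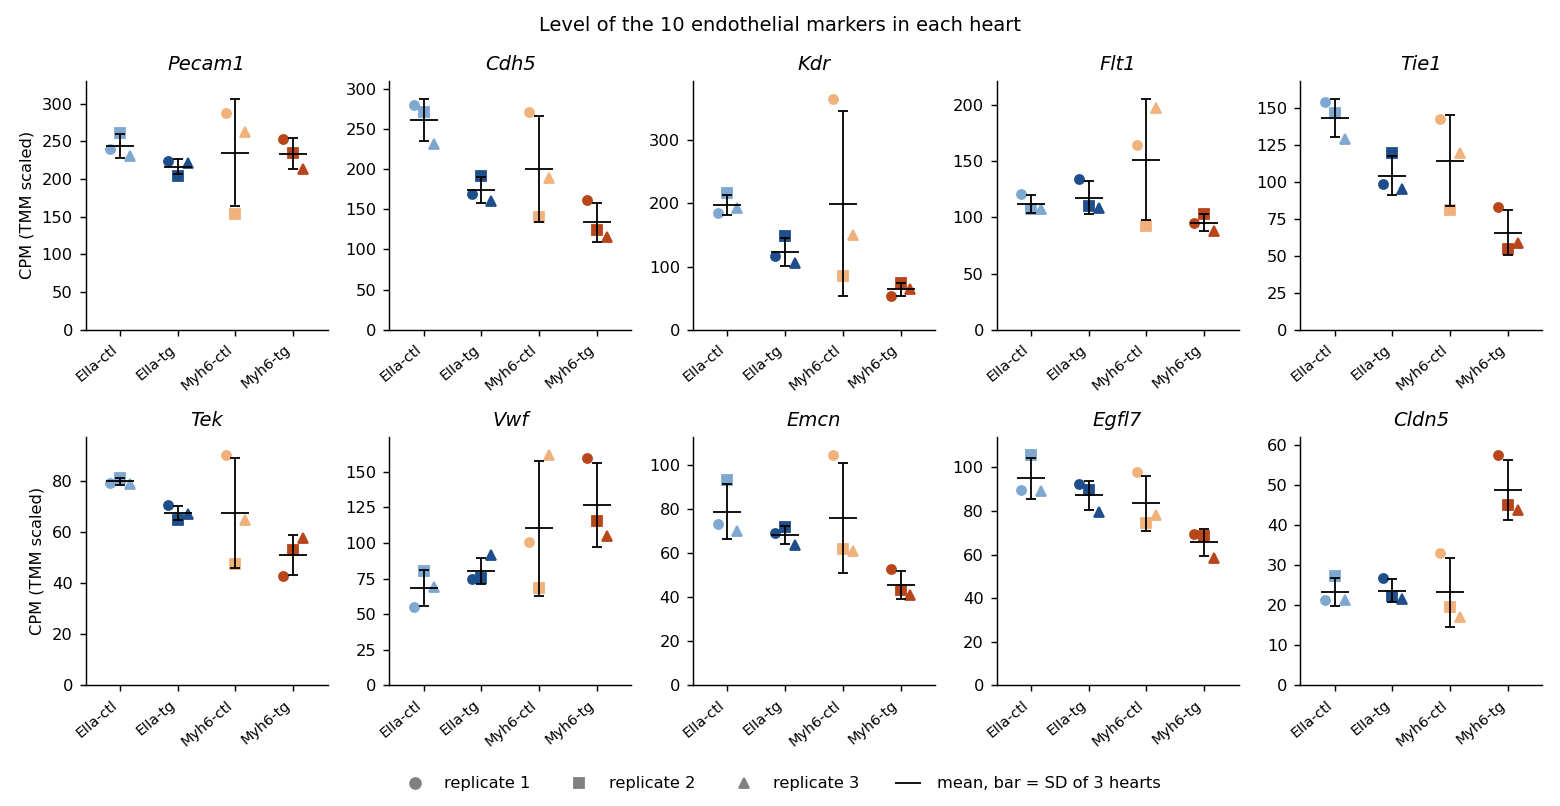
CPM after TMM scaling (y axis, from 0) of each of the 10 endothelial markers in the 12 hearts, with symbols for replicates 1 to 3 and the mean with SD per group. The 3 EIIa-tg hearts lie below the EIIa-ctl hearts for Kdr, Cdh5 and Tie1, the Myh6-tg hearts lie above all others for Cldn5, and Myh6-ctl replicates 1 and 2 are far apart for Kdr (364 and 85.3 CPM).

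The comparison of EIIa-tg with EIIa-ctl asks how the hearts differ when the transgene is expressed throughout the body. EIIa-Cre and expression of the transgene change together between these groups, so that their effects cannot be told apart. In EIIa-tg hearts 3 of the 10 markers fell, Kdr, Cdh5 and Tie1, by 1.61-, 1.5- and 1.37-fold, and 0 rose (adjusted p under 0.05, edgeR's quasi-likelihood test in 6 hearts). By this rule 8.3% of the 14908 genes tested were lower and 8.65% were higher. At an unadjusted p under 0.05, 4 of the 10 markers were lower and 0 higher, where 34.9% of all genes passed in either direction, and DESeq2 called 3 of 10 lower and 0 higher, where it called 21% of 16866 genes. The median log2 fold change of the 10 markers was -0.19, against 0.02 over all genes tested, and on log2 FPKM it was 0.01 against a median of 0.16 over all genes. In CPM the 3 EIIa-tg hearts lay below the 3 EIIa-ctl hearts for 5 markers and above them for 0, where 20.8% of all genes tested lay below and 20.3% above. None of the markers passed the study's thresholds for differentially expressed genes (adjusted p under 0.01 and at least a 2-fold change) with edgeR or DESeq2, where 0% of the genes tested passed with edgeR and 4.96% with DESeq2. The calls depended on the hearts in the fit for markers and for genes at large. Without EIIa-ctl replicate 1, EIIa-ctl replicate 3, EIIa-tg replicate 1 or EIIa-tg replicate 3, 0 markers were called, and edgeR called 0, 1, 0 and 133 genes in all, so that these lost calls are not particular to the markers. Without EIIa-ctl replicate 2, 1 marker (Cdh5) was called, and without EIIa-tg replicate 2 all 3. With 1 heart left out the log2 fold change was -0.58 to -0.85 for Kdr, -0.53 to -0.67 for Cdh5 and -0.39 to -0.58 for Tie1. With all 12 hearts in one fit 0 markers and 1.43% of 15929 genes were called, and the log2 fold changes were -0.68, -0.58 and -0.46.

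The comparison of Myh6-tg with Myh6-ctl asks the same of expression in adult cardiomyocytes, and its directions rest on group labels that Esr1 goes against. In Myh6-tg hearts 1 of the 10 markers rose, Cldn5, by 2.10-fold, and 0 fell by the same test in 6 hearts, although 8 of the 10 had a negative log2 fold change. Of the 15298 genes tested 8.96% were higher and 9.38% lower. At an unadjusted p under 0.05, 1 of the 10 markers was higher and 4 were lower, where 34.1% of all genes passed in either direction. Replicate 1 was the male heart of each group by its Y-linked counts, so a block on the replicate number also takes sex into account. With the replicate number as a block, a pairing that no label states, 3 markers were called, Cldn5 higher (adjusted p = 0.010) and Tie1 (0.0231) and Emcn (0.0352) lower, where 9.76% of genes were higher and 11.2% lower. DESeq2 called these 3 and Kdr, where it called 21.9% of 17711 genes. The median log2 fold change of the markers was -0.49, against 0.03 over all genes, and on log2 FPKM it was -0.06 against a median of 0.34 over all genes. In CPM the Myh6-tg hearts lay below all Myh6-ctl hearts for Kdr, Emcn and Egfl7 and above them for Cldn5, where 19.6% of the genes tested lay below and 20.6% above. No marker passed the study's thresholds with edgeR, where 3.97% of all genes did, and 2 passed them with DESeq2, where 12.1% did. Leaving out 1 heart gave 0 to 3 calls, where 5.01% to 26.7% of all genes were called, with 0 called without Myh6-ctl replicate 3, Myh6-tg replicate 2 or Myh6-tg replicate 3, and without Myh6-tg replicate 1 the call was Tie1, lower. Without Myh6-ctl replicate 2, Cldn5 was not called (adjusted p = 0.10), and Kdr (0.0333), Flt1 (0.0324) and Tie1 (0.0454) were called lower.

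**Figure D3:**
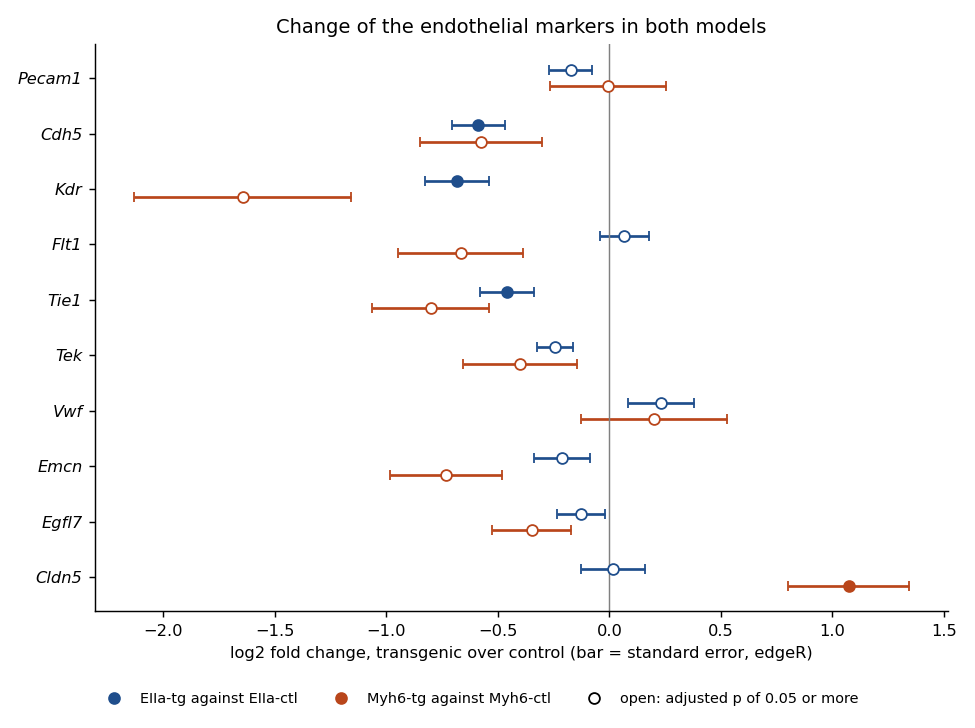
Log2 fold change of each endothelial marker (x axis, transgenic over control, bars are standard errors from edgeR) in the EIIa and the Myh6 model, with filled points for an adjusted p under 0.05. Filled points are Kdr, Cdh5 and Tie1 to the left of 0 in the EIIa model and Cldn5 (1.07) to the right of 0 in the Myh6 model, and the Myh6 bars are the wider ones.

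Of the 2 VEGF receptors, Kdr was lower in EIIa-tg hearts and Flt1 was not distinguished from its controls. Kdr (chr5:75932827-75978458, minus strand) encodes VEGFR2, the main signalling receptor of VEGF-A. It had 185, 216 and 193 CPM in EIIa-ctl and 116, 148 and 105 CPM in EIIa-tg replicates 1 to 3. All transgenic hearts lay below all controls, and the log2 fold change with its standard error (SE) was -0.69 ± 0.14 (adjusted p = 0.0229). In the Myh6 model Kdr had 364, 85.3 and 149 CPM in Myh6-ctl and 52.8, 74.7 and 63.7 CPM in Myh6-tg replicates 1 to 3. The groups did not overlap, but the controls differed among themselves by more than the lowest control differed from the transgenic hearts, and the log2 fold change of -1.65 did not pass the test (standard error 0.49, adjusted p = 0.0528). It was -0.88 without Myh6-ctl replicate 1 (adjusted p = 0.122) and -2.01 without replicate 2. Flt1 (chr5:147561604-147726011, minus strand) encodes VEGFR1, which binds VEGF-A tightly and also exists in a soluble form that sequesters it. It had 107 to 121 CPM in EIIa-ctl and 108 to 134 CPM in EIIa-tg hearts, and the groups overlapped (log2 fold change 0.07 ± 0.11 SE, adjusted p = 0.709). In Myh6-ctl it had 165, 91.9 and 197 CPM, and in Myh6-tg 94.7, 103 and 87.8 CPM (log2 fold change -0.67 ± 0.28 SE, adjusted p = 0.137). Myh6-ctl replicate 2 was the heart that overlapped the transgenic ones.

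Of the angiopoietin receptor pair, Tie1 fell in EIIa-tg hearts. Tie1 (chr4:118471191-118490061, minus strand) is a receptor without a high-affinity ligand of its own that modulates Tek. It had 154, 146 and 129 CPM in EIIa-ctl and 98.1, 119 and 95.0 CPM in EIIa-tg hearts, with no overlap (log2 fold change -0.46 ± 0.12 SE, adjusted p = 0.0387). In Myh6-ctl it had 142, 81.1 and 119 CPM and in Myh6-tg 82.8, 54.8 and 58.9 CPM (log2 fold change -0.80 ± 0.26 SE, adjusted p = 0.0700). The groups overlapped only through Myh6-tg replicate 1 and Myh6-ctl replicate 2, and the fall passed with the replicate block given above. Tek (chr4:94739289-94874976, plus strand), which encodes the angiopoietin receptor Tie2, had 78.9 to 81.3 CPM in EIIa-ctl and 64.8 to 70.6 CPM in EIIa-tg hearts. These groups did not overlap either, but the log2 fold change of -0.25 did not pass the test (standard error 0.08, adjusted p = 0.0677). In the Myh6 model Tek had 90.2, 47.7 and 64.6 CPM in controls and 42.7, 52.9 and 57.8 CPM in transgenic hearts, which overlapped (log2 fold change -0.40 ± 0.26 SE, adjusted p = 0.310).

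Of the 3 junction genes, Cdh5 fell in EIIa-tg and Cldn5 rose in Myh6-tg hearts. Cdh5 (chr8:104101625-104144511, plus strand) encodes VE-cadherin, the adhesion protein of endothelial adherens junctions, and overlaps the antisense gene Gm29682, whose reads cannot be told apart from its own without strand information. It had 280, 270 and 231 CPM in EIIa-ctl and 169, 192 and 160 CPM in EIIa-tg hearts, with no overlap (log2 fold change -0.59 ± 0.12 SE, adjusted p = 0.0217). In the Myh6 model it had 271, 140 and 189 CPM in controls and 161, 125 and 116 CPM in transgenic hearts, with overlap through Myh6-ctl replicate 2 (log2 fold change -0.58 ± 0.27 SE, adjusted p = 0.180). The error was larger in the Myh6 than in the EIIa model. Pecam1 (chr11:106654217-106750628, minus strand) encodes the adhesion receptor CD31. It had 239, 261 and 231 CPM in EIIa-ctl and 224, 205 and 221 CPM in EIIa-tg hearts, which lay just below the controls (log2 fold change -0.17 ± 0.10 SE, adjusted p = 0.228). In Myh6-ctl it had 287, 154 and 263 CPM and in Myh6-tg 254, 234 and 213 CPM, so that the transgenic hearts lay within the range of the controls (log2 fold change -0.01 ± 0.26 SE, adjusted p = 0.989). Cldn5 (chr16:18776847-18778262, plus strand) encodes claudin-5, the main claudin of endothelial tight junctions. It had 21.3, 27.3 and 21.2 CPM in EIIa-ctl and 26.9, 22.2 and 21.6 CPM in EIIa-tg hearts, which overlapped (log2 fold change 0.02 ± 0.14 SE, adjusted p = 0.950). In Myh6-ctl it had 33.0, 19.6 and 17.0 CPM and in Myh6-tg 57.5, 45.1 and 43.8 CPM. Every Myh6-tg heart was above every other heart of the series in Cldn5, and the rise over Myh6-ctl passed the test (log2 fold change 1.07 ± 0.27 SE, adjusted p = 0.0331).

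Of the secreted and surface glycoprotein genes, none was called in either model by edgeR in the 6 hearts of a model without a block. Emcn was called lower in Myh6-tg hearts with other settings given below. Vwf (chr6:125546774-125686679, plus strand) encodes von Willebrand factor, which is stored in endothelial granules and binds platelets. It had 55.2, 80.6 and 69.3 CPM in EIIa-ctl and 75.0, 75.0 and 91.2 CPM in EIIa-tg hearts (log2 fold change 0.23 ± 0.15 SE, adjusted p = 0.304). In the Myh6 model it had 101, 68.4 and 162 CPM in controls and 160, 116 and 105 CPM in transgenic hearts (log2 fold change 0.20 ± 0.33 SE, adjusted p = 0.713). Vwf overlapped between the groups of both models. Emcn (chr3:137341067-137432185, plus strand) encodes endomucin, a sialomucin of capillary and venous endothelium. It had 73.2, 93.3 and 70.2 CPM in EIIa-ctl and 69.1, 71.8 and 63.7 CPM in EIIa-tg hearts (log2 fold change -0.21 ± 0.12 SE, adjusted p = 0.260). In Myh6-ctl it had 105, 61.9 and 60.9 CPM and in Myh6-tg 52.8, 43.1 and 40.9 CPM. The Myh6 groups did not overlap (log2 fold change -0.73 ± 0.25 SE, adjusted p = 0.0796), and Emcn was called lower with the replicate block, with DESeq2 (0.0411) and with all 12 hearts in one fit (0.0184). Egfl7 encodes a secreted protein of the endothelial matrix and shares positions with Gm20532, Mir126a, Mir126b and Agpat2, so that some reads may not be its own. It had 89.3 to 106 CPM in EIIa-ctl and 79.5 to 92.3 CPM in EIIa-tg hearts (log2 fold change -0.13 ± 0.11 SE, adjusted p = 0.434). In Myh6-ctl it had 97.8, 74.3 and 78.3 CPM and in Myh6-tg 69.5, 68.5 and 58.6 CPM, with no overlap (log2 fold change -0.35 ± 0.18 SE, adjusted p = 0.210).

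The change in the Myh6 model minus that in the EIIa model was tested as an interaction term in all 12 hearts. By edgeR 0 of the 10 markers passed, where 3.92% of the 15929 genes tested did, and DESeq2 called 1, where it called 8.53% of 16360 genes. At an unadjusted p under 0.05, Cldn5 was higher and Flt1 lower, 2 of the 10 markers, where 19.4% of all genes passed. Cldn5 differed by 1.05 on the log2 scale (standard error 0.33, adjusted p = 0.0992 by edgeR and 0.0390 by DESeq2). Flt1 differed by -0.74 (standard error 0.32, adjusted p = 0.222) and Kdr by -0.96 (standard error 0.55, adjusted p = 0.370), which leaves wide margins. Without Myh6-ctl replicate 1 Cldn5 was called (1.39, adjusted p = 0.0191), and without Myh6-ctl replicate 2 Flt1 was called (-1.0, adjusted p = 0.0215). Cdh5 differed by 0.01 (standard error 0.31, adjusted p = 0.997). The models differ in age, Cre line and treatment as well as in where the transgene is expressed, and these cannot be told apart. Between the control groups, Myh6-ctl against EIIa-ctl, 0 of 10 markers were called by edgeR or DESeq2, where edgeR called 0.0334% of 14990 genes and DESeq2 2.63% of 16285, and Vwf alone had an unadjusted p under 0.05 (log2 fold change 0.69 ± 0.29 SE, adjusted p = 0.420).

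Ratios between markers within a heart do not depend on how libraries are scaled. Each marker was therefore also expressed per Pecam1 count of the same heart, a comparison chosen after the values had been seen. All 9 ratios share the Pecam1 count, so they are not independent of each other. Pecam1 itself had a log2 fold change of -0.17 in the EIIa and -0.01 in the Myh6 model. In the Myh6 model 6 of the 9 ratios were lower in all transgenic hearts than in all controls, those of Kdr, Cdh5, Flt1, Tie1, Emcn and Egfl7, and that of Cldn5 was higher. Among all other genes tested, 17.3% had a lower and 9.87% a higher ratio without overlap. Kdr had 1.27, 0.554 and 0.569 counts per Pecam1 count in Myh6-ctl and 0.208, 0.319 and 0.300 in Myh6-tg replicates 1 to 3. Cldn5 had 0.115, 0.128 and 0.0647 in Myh6-ctl and 0.227, 0.193 and 0.206 in Myh6-tg. Tie1 had 0.454 to 0.527 in Myh6-ctl, including the heart that overlapped in CPM, and 0.234 to 0.327 in Myh6-tg. The Tek and Vwf ratios overlapped. In the EIIa model the ratios of Kdr and Cdh5 were lower and that of Vwf higher without overlap, where 5.96% of genes had a lower and 34.4% a higher ratio. Kdr had 0.772, 0.825 and 0.838 in EIIa-ctl and 0.520, 0.724 and 0.476 in EIIa-tg replicates 1 to 3. The Tie1 ratio overlapped through EIIa-tg replicate 2 (0.582).

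**Figure D4:**
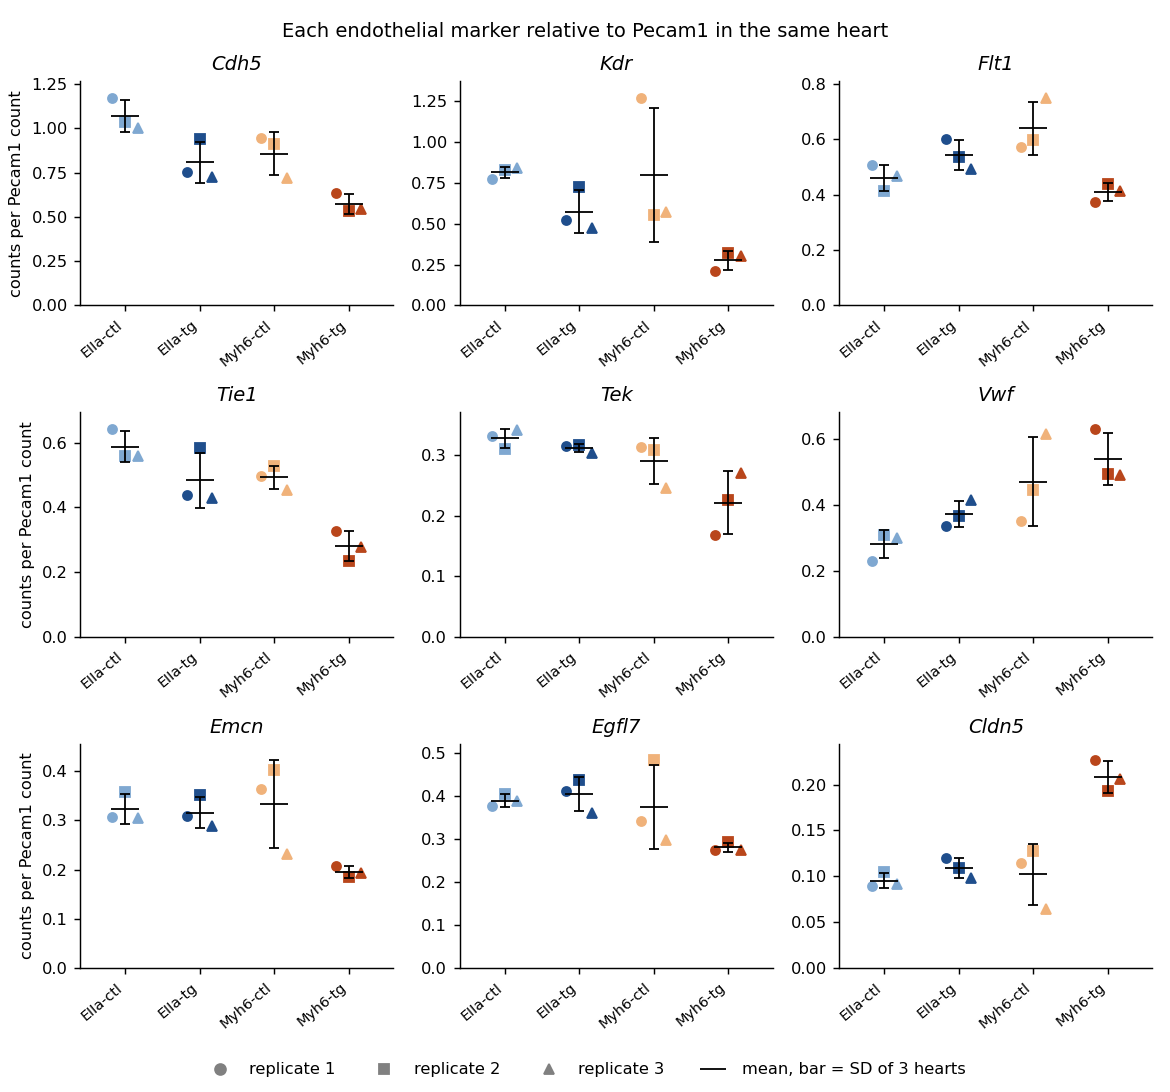
Counts of 9 endothelial markers per Pecam1 count of the same heart (y axis, from 0) in the 4 groups, with symbols for replicates and the mean with SD of 3 hearts. The Myh6-tg points lie below the Myh6-ctl points for Kdr, Cdh5, Flt1, Tie1, Emcn and Egfl7 and above them for Cldn5.

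Further endothelial genes were grouped in 10 lists. Of all genes tested edgeR called 8.3% lower and 8.65% higher in EIIa-tg hearts. In Myh6-tg hearts it called 9.38% lower and 8.96% higher. Of 24 further pan-endothelial genes 9 fell in EIIa-tg hearts (median log2 fold change -0.19). Cd93, an endothelial lectin-like receptor, fell by 0.90 on the log2 scale (standard error 0.11, adjusted p = 0.0135), and Mcam and Podxl each fell by 0.49 (adjusted p = 0.0195 and 0.0240). In Myh6-tg hearts 4 of the 24 fell (median -0.42), led by Myct1 (log2 fold change -1.43 ± 0.22 SE, adjusted p = 0.00795), Arhgef15 and Ushbp1. Among 13 VEGF and angiopoietin ligands and co-receptors, 5 were lower and 2 higher in EIIa-tg, and 5 lower and 1 higher in Myh6-tg hearts. The VEGF co-receptors Nrp1 and Nrp2 fell in EIIa-tg hearts by 0.83 and 0.99 on the log2 scale (adjusted p = 0.0175 and 0.0166). Apln, the ligand apelin of endothelial tip cells, had 29.5 to 30.3 CPM in EIIa-ctl and 1.53 to 8.04 CPM in EIIa-tg hearts (log2 fold change -2.95, adjusted p = 0.0191), and it also fell in Myh6-tg hearts (-2.07, adjusted p = 0.0195). Its receptor gene Aplnr fell in EIIa-tg (log2 fold change -2.16 ± 0.41 SE, adjusted p = 0.0197) and in Myh6-tg hearts (-3.53 ± 0.60 SE, adjusted p = 0.00980). The ligand gene Vegfb fell in Myh6-tg hearts (-1.72, adjusted p = 0.0143), while Pgf, which encodes a ligand of VEGFR1, rose (1.78, adjusted p = 0.00456). Vegfb is also made by cardiomyocytes, so that its level does not speak for endothelial cells alone.

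Of 15 endothelial transcription factor genes 4 fell and 1 rose in EIIa-tg hearts, where 8.3% of all genes tested fell and 8.65% rose. The shares of all genes in Myh6-tg hearts were 9.38% lower and 8.96% higher. Ets1 and Erg, both of the ETS family, fell by 0.70 and 0.60 on the log2 scale (adjusted p = 0.0166 and 0.0259), and Sox17 rose by 1.01 (adjusted p = 0.0166). In Myh6-tg hearts Sox7 had 11.6 to 12.04 CPM against 39.0 to 47.7 CPM in Myh6-ctl (log2 fold change -1.87 ± 0.16 SE, adjusted p = 0.00157). There edgeR called Sox7 and Tal1 lower of the 15. DESeq2 called 3 lower, where it called 21.9% of all genes in either direction. With the replicate block 2 were lower and 1 higher, where 11.2% and 9.76% of all genes were. All 12 hearts in one fit gave 5 lower, where 31.7% of all genes were called in either direction. Of 10 capillary and lipid uptake genes, Meox2 and Tcf15, transcription factor genes of heart capillaries, fell in both models, with changes of -0.78 and -0.57 on the log2 scale in EIIa-tg and of -0.69 and -1.38 in Myh6-tg hearts. Rgcc rose in EIIa-tg (1.48, adjusted p = 0.0166), and the water channel gene Aqp1 fell in Myh6-tg hearts (-0.90, adjusted p = 0.0284). Of 10 arterial genes Unc5b and Dll4 fell in EIIa-tg (-0.67 for each), while Unc5b (0.95, adjusted p = 0.0320) and Fbln5 (1.76, adjusted p = 0.00386) rose in Myh6-tg hearts. Among 6 venous genes Vwa1 fell in both models, by 0.50 and 1.37, and Vcam1 rose in EIIa-tg hearts (0.59, adjusted p = 0.0399).

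Of 5 lymphatic genes Prox1 fell and Lyve1 rose in EIIa-tg hearts, and Pdpn rose in Myh6-tg hearts. Lyve1 is also expressed by heart macrophages, Prox1 by cardiomyocytes and Pdpn by fibroblasts. The 5 endocardial genes gave 0 calls in either model by edgeR, with 1 at an unadjusted p under 0.05 in the EIIa and 0 in the Myh6 model, and DESeq2 called 1 of them higher in EIIa-tg and 0 in Myh6-tg hearts. Of 8 activation genes 1 rose in EIIa-tg, and 2 rose and 2 fell in Myh6-tg hearts. Of all genes tested 8.65% rose and 8.3% fell in EIIa-tg, and 8.96% rose and 9.38% fell in Myh6-tg hearts. Edn1, the gene of the vasoconstrictor endothelin-1, had 4.06 to 6.58 CPM in Myh6-ctl and 19.0 to 20.0 CPM in Myh6-tg hearts (log2 fold change 1.98 ± 0.24 SE, adjusted p = 0.00380). Procr, the endothelial protein C receptor gene, rose in Myh6-tg (2.38, adjusted p = 0.00887) and Icam1, a leukocyte adhesion gene, in EIIa-tg hearts (0.83, adjusted p = 0.0179). Thbd, the thrombomodulin gene, had 66.6 to 118 CPM in Myh6-ctl and 18.4 to 39.6 CPM in Myh6-tg hearts, with no overlap (log2 fold change -1.51 ± 0.34 SE, adjusted p = 0.0224). Of 8 tested junction genes Afdn, Jam3 and Ctnnb1 fell in EIIa-tg hearts, and Jam3 fell in Myh6-tg hearts. Of the 22 calls named from these lists in the EIIa model 0 remained when each heart was left out in turn, 0 with the replicate number as a block and 1 with all 12 hearts in one fit, whereas DESeq2 made all 22. The first 2 counts are fixed by the fits, which called 0 genes of the whole table when replicate 1 of either EIIa group was absent and 1 gene of 14908 with the block. Of the 19 named in the Myh6 model 9 remained when each heart was left out, 18 with the block and 19 with DESeq2. With limma on log2 FPKM 15 of the 22 calls in the EIIa and 13 of the 19 in the Myh6 model remained. The genes were named for the lowest adjusted p in edgeR on the same hearts, so these counts are no independent support for the calls.

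Markers of other cell types are given beside the endothelial ones. Of all genes tested edgeR called 8.3% lower and 8.65% higher in EIIa-tg, and 9.38% lower and 8.96% higher in Myh6-tg hearts. Single genes without overlap in CPM were 20.8% lower and 20.3% higher in EIIa-tg, and 19.6% lower and 20.6% higher in Myh6-tg hearts. No such share was computed for sums of lists. The 10 cardiomyocyte markers summed to 53782 to 62959 CPM in EIIa-ctl against 26021 to 46524 CPM in EIIa-tg hearts, and to 40333 to 56320 CPM in Myh6-ctl against 11447 to 33227 CPM in Myh6-tg hearts. They were lower without overlap in both transgenic groups, and 2 of the 10 in EIIa-tg and 6 of the 10 in Myh6-tg hearts were called lower. The 8 fibroblast markers summed to 1494 to 2181 CPM in EIIa-ctl and 2741 to 3955 CPM in EIIa-tg, and to 2011 to 2607 CPM in Myh6-ctl and 2601 to 6228 CPM in Myh6-tg hearts, and 2 of the 8 in EIIa-tg and 3 in Myh6-tg hearts were called higher. The 8 macrophage markers were all called higher in EIIa-tg hearts, where they summed to 472 to 632 CPM against 241 to 357 CPM in EIIa-ctl, and 0 of the 8 were called in Myh6-tg hearts, where they summed to 609 to 1182 CPM against 445 to 634 CPM in Myh6-ctl, with overlap. The 8 smooth muscle and pericyte markers, cells that surround the endothelium, summed to 1606 to 1803 CPM in EIIa-ctl and 1219 to 1609 CPM in EIIa-tg, and to 1349 to 1732 CPM in Myh6-ctl and 1040 to 1142 CPM in Myh6-tg hearts, with 1 and 2 of the 8 called lower. The 5 red cell markers were lowest in EIIa-tg (198 to 1270 CPM) and highest in Myh6-ctl hearts (5219 to 8146 CPM), with 1 of the 5 called lower in EIIa-tg and 3 in Myh6-tg hearts. The 4 atrial markers summed to higher values without overlap in both transgenic groups, from 116 to 356 CPM in EIIa-ctl to 501 to 781 CPM in EIIa-tg and from 153 to 1816 CPM in Myh6-ctl to 4187 to 6523 CPM in Myh6-tg hearts, with 1 called higher in each model. Lymphocyte markers summed to 2.66 to 3.48 CPM in EIIa-ctl and 3.83 to 4.12 CPM in EIIa-tg, and to 3.32 to 5.01 CPM in Myh6-ctl and 0.256 to 2.52 CPM in Myh6-tg hearts, higher without overlap in the first and lower in the second model, with 0 of 5 tested and 1 of 7 called. Platelet markers summed to 13.02 to 50.3 CPM and mesothelial markers to 4.83 to 29.5 CPM over the 12 hearts. The part of these shifts in the endothelial values was not tested.

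**Figure D5:**
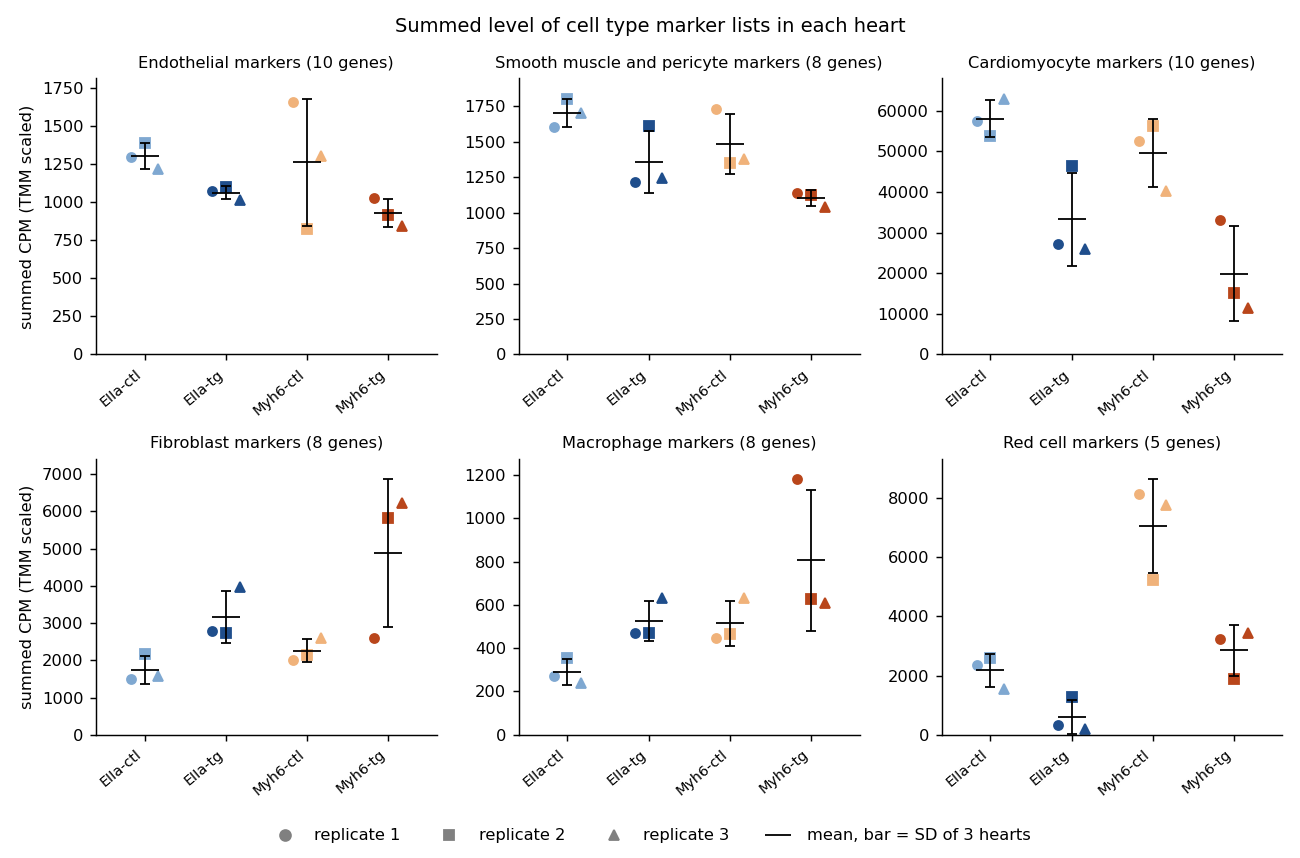
Summed CPM after TMM scaling (y axis, from 0) of the 10 endothelial markers and of marker lists of 5 other cell types in the 12 hearts, with symbols for replicates and the mean with SD per group. The endothelial sum was 1220 to 1389 CPM in EIIa-ctl and 1013 to 1097 CPM in EIIa-tg, while the cardiomyocyte sum was lower and the fibroblast and macrophage sums were higher in EIIa-tg than in EIIa-ctl hearts.

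The genes whose pattern was most like that of the markers were found among 10378 genes with a mean of at least 5 CPM, by the root mean square difference over the 12 hearts between the centred log2 CPM of a gene and the median of the centred markers. The nearest was Rgs5, a pericyte gene (difference 0.0956), followed by Tlr3 (0.112), Rgs3 (0.116), Numb (0.120), Sipa1 (0.123) and the unnamed locus NewGene_1816 (0.126), against a median of 0.419 over all genes compared. Among the markers, Egfl7 (0.134) and Tek (0.155) were nearest to this median, and Kdr (0.525), Vwf (0.576) and Cldn5 (0.668) were farther from it than the median gene. Rgs5 had 842 to 905 CPM in EIIa-ctl against 658 to 796 CPM in EIIa-tg hearts, and 623 to 962 CPM in Myh6-ctl against 576 to 646 CPM in Myh6-tg hearts. Myh6-ctl replicate 1 was its highest and replicate 2 its lowest control of that model, as for most markers.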

How the data were processed

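RNA of 12 mouse hearts was sequenced. The study's methods name GRCm38 and Hisat2, and the submitters' processing notes name HISAT2 2.0.4, StringTie 2.2.1 and DESeq2. The authors deposited whole-number read counts per locus without normalization and FPKM values, which they scaled to transcript length and library size. Counts need no correction for length between groups but depend on library composition, which TMM scaling adjusts. The library kit named is not stated to mark strand, so overlapping genes cannot be separated. Positions are from GENCODE M21 (GRCm38).

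Hearts were grouped by title. The genotype labels of EIIa-tg replicates 2 and 3 differ from that of replicate 1. Counts were filtered with filterByExpr, given TMM factors and tested by quasi-likelihood (glmQLFit, glmQLFTest; edgeR 4.0.16, R 4.3.3) in the 6 hearts of each comparison, and in 12 hearts for the difference between models. p-values were adjusted by Benjamini-Hochberg over all genes tested, and a call is an adjusted p under 0.05. The members and lists were chosen with earlier results of these data known. Lists hold 10 sets of endothelial genes and 11 of other cell types, and some genes of the endothelial sets are not reported here. Named genes are the 10 markers, up to 3 called genes with the lowest adjusted p per endothelial list and comparison, and the 6 genes of nearest pattern. Deviations from the group means correlated at 0.270, 0.212 and 0.229 between same-numbered Myh6 hearts. Between same-numbered EIIa hearts the correlations were 0.124, -0.116 and -0.0978. The differently numbered EIIa-ctl replicate 2 and EIIa-tg replicate 3 reached 0.229, so these values do not establish a pairing. No label states that hearts of the same number are pairs. Replicate 1 differs from the others in sex.

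Alternatives were DESeq2 1.42.0, RLE factors, no filter, no mt- genes, the block, all 12 hearts, limma 3.58.1 on log2 FPKM (pseudocounts 1 and 0.1, FPKM of at least 0.5 in 3 hearts or no filter), other CPM totals and each heart left out. Ratios to Pecam1 and overlap of hearts were added after seeing the data. Totals of 38343106 to 50969834 counts put 3 counts at 0.0568 to 0.0815 CPM, which covers counting error only. On simulated data with 200 genes changed 4-fold, edgeR called 200 in the EIIa and 185 in the Myh6 comparison, with 13 and 10 false calls. For the difference between models it called 161, with 12 false calls. The changes of the markers were smaller than 4-fold, so these counts do not show how often such changes are found. Promoter, miRNA and motif sequences are from RefSeq, GRCm38.p6. The transgene was not analysed here.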

Additional observations from a re-analysis of the deposited data

Results flagged for a closer look

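The change in Myh6-tg minus the change in EIIa-tg passed the interaction test (adjusted p under 0.05, edgeR, 12 hearts) for 5 genes of the further endothelial lists and for none of the 10 markers (at an unadjusted p under 0.05 for 2, and 1 by DESeq2). Of all 15929 genes tested 3.92% passed. Unc5b, an arterial guidance receptor gene, fell in EIIa-tg (-0.67) and rose in Myh6-tg hearts (0.95), a difference of 1.62 (standard error 0.29, adjusted p = 0.0112). Edn1 differed by 1.96 (standard error 0.35, adjusted p = 0.0112) and Fbln5, an elastic fibre gene that fibroblasts also express, by 1.67 (standard error 0.23, adjusted p = 0.00416). Sox7, an endothelial transcription factor gene, differed by -1.30 (standard error 0.31, adjusted p = 0.0351), and Ushbp1 by -1.02 (standard error 0.21, adjusted p = 0.0207). Of these 5 calls 3, those of Unc5b, Edn1 and Fbln5, remained when each heart was left out in turn. The directions in the Myh6 model rest on group labels that Esr1 goes against. Age, Cre line and treatment differ between the models and cannot be told apart here.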

How the results depend on the processing

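The count of markers called depended on the setting. In EIIa-tg against EIIa-ctl it was 3 as reported, 2 (Kdr and Cdh5) with limma on filtered log2 FPKM at either pseudocount, 0 on unfiltered log2 FPKM, which called 1 of 19490 genes, 0 with all 12 hearts in one fit, which called 227 of 15929, 0 at the study's thresholds with edgeR or DESeq2, 5 by lack of overlap in CPM, and 0 to 3 when 1 heart was left out. In Myh6-tg against Myh6-ctl it was 1 as reported, 4 with DESeq2, 2 with edgeR without the filter, 5 with all 12 hearts, 0 at the study's thresholds with edgeR, 2 at them with DESeq2 or all 12 hearts and 1 with limma on filtered log2 FPKM, 4 by lack of overlap, and 0 to 3 when 1 heart was left out. For the difference between models it was 0 as reported and 0 with edgeR without the filter. It was 1 with DESeq2, 1 with limma on filtered log2 FPKM at either pseudocount and 1 with limma on unfiltered log2 FPKM, each time Cldn5. It was 0 to 1 when 1 heart was left out. For the control groups it was 0 under each of these settings. With replicate numbers as a block, 0 markers and 1 of 14908 genes were called in the EIIa model, and 3 markers were called in the Myh6 model. No label states that hearts of the same number are pairs. On FPKM all genes tested split into 2361 higher and 667 lower calls in EIIa-tg and 3328 and 900 in Myh6-tg, against 1289 and 1238, and 1370 and 1435, with edgeR. Cdh5 and Kdr had a negative log2 fold change in all 16 fits of each model, passing the test in 9 and 8 of them in the EIIa and in 0 and 4 in the Myh6 model. Cldn5 had a positive one in all 16 fits of the Myh6 model and passed in 11. The cause of these changes was not tested. Every marker had at least 759 counts in every heart, and the part of depth in these changes was not tested.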
